A study of Homo sapiens with 9 samples.

Results

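The 9 genes described here encode nuclear receptors for steroid hormones, vitamin D and retinoids (ESR1, PGR, NR3C1, VDR, RARA, RARB and RARG) and a pair of transcription factors of luminal breast cells (GATA3 and FOXA1). They were matched by symbol to the gene names in the quantification files, and all 9 were found among 58219 genes. The match used no measured value, but the genes were chosen with earlier results of these data known. RNA was sequenced from MDA-MB-231, an established human breast carcinoma line classed as receptor-negative, in 9 libraries. The 3 control libraries came from cells given a lentiviral scrambled shRNA, the 3 shAPT1 libraries from cells with a stable lentiviral shRNA against APT1 selected with puromycin, and the 3 APT1wt libraries from cells with stable lentiviral expression of wild-type APT1, all grown in DMEM with 10% FBS. APT1, encoded by LYPLA1, is a thioesterase that removes palmitate from proteins. APT1wt cells were compared with cells carrying a scrambled shRNA, so an effect of more APT1 and an effect of the different vectors cannot be told apart. Whether the 3 libraries of each group were separate cultures is not given in the labels. The p-values therefore refer to the spread among these libraries, which could be technical.

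Nuclear receptors are transcription factors that are switched by small lipid-soluble ligands. Steroid receptors such as the oestrogen, progesterone and glucocorticoid receptors bind DNA as pairs of the same receptor, whereas the retinoic acid and vitamin D receptors pair with a retinoid X receptor. In the breast, GATA3 and FOXA1 help to establish the luminal programme, and FOXA1 opens chromatin for the oestrogen receptor. RARB is itself a textbook target of retinoic acid, through a repeat in one of its promoters, and is often silenced in breast carcinoma.

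Libraries held 12381931 to 18667383 estimated reads, and 14134 to 15133 genes reached 10 reads. LYPLA1 followed the labels, with control at 86.8 ± 6.1 TPM, shAPT1 at 35.1 ± 4.1 TPM and APT1wt at 170 ± 1.0 TPM (mean ± SD, n = 3). TPM is a transcript's share of a library corrected for transcript length, and it allows levels of different genes to be compared. The mesenchymal filament gene VIM stood at 1894 to 2298 TPM as group means and the luminal keratin gene KRT8 at 188 to 308 TPM. Other luminal genes differed widely in level. KRT19 averaged 82.1 to 106 TPM and EPCAM 8.68 to 10.3 TPM, while CDH1, ERBB3 and SPDEF had group means of at most 1.30, 2.09 and 2.82 TPM. The receptor gene ERBB2 averaged 29.9 to 32.5 TPM, so its RNA was present in this line. Of the markers of other cell types, the leukocyte list of 7 genes summed to 104.5 to 131 TPM in control, 67.4 to 87.9 in shAPT1 and 69.5 to 98.6 in APT1wt. Most of that was CD68, at 117 ± 14 TPM in control, while PTPRC, the common leukocyte antigen, stayed at or below 0.265 TPM in each library.

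RARB and RARG showed the largest changes of the members tested, so 1 promoter window of each is shown, with RARA for comparison. Each is the 250 bases before an annotated transcription start in RefSeq on GRCh38.p14, written 5′ to 3′ on the strand of the gene. The RARB window is chr3:25428013-25428262 on the plus strand, inside the annotated gene and just before the shared start of the transcripts RARB-001 and RARB-002. The RARA window is chr17:40317995-40318244 on the plus strand and the RARG window chr12:53232210-53232459 on the minus strand. For RARA and RARG the window with the most control TPM starting in it was taken. The RARB window was instead the 1 that held a repeat, and the transcripts starting in it had 0 TPM in control. Capitals mark the half-sites of a direct repeat found by the motif search.
RARB: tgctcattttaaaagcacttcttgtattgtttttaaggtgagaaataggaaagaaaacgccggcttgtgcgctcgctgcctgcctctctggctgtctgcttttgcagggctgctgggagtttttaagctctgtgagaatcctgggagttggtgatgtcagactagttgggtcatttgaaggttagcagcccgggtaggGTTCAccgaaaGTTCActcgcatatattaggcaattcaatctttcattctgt
RARA: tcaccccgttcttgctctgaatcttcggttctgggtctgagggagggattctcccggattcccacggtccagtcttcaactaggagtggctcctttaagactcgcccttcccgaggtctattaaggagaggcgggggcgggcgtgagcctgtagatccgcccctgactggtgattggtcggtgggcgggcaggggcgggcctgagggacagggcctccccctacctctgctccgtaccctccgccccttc
RARG: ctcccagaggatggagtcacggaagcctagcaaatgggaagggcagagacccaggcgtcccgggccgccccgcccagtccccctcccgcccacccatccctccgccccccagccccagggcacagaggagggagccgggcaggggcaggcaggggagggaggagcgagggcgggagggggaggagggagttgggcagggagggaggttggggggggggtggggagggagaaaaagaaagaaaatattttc
The search covered both strands of 35116 RefSeq windows of 250 bases before and 50 after a start, of which 31 belonged to the members. VDR had no entry, and 8 of 9 members matched. The repeat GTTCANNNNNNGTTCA was in 20 windows (0.0570%), and in 1 of the 31 member windows, that of RARB. It lay at chr3:25428211-25428226, from 52 to 37 bases before the start. A repeat in a RARB promoter was known beforehand, so this hit is description and its rarity over all windows is not a finding. The other forms searched were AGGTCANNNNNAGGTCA for retinoic acid receptors, GGTCANNNTGACC for oestrogen receptors, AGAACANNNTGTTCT and the looser GNACANNNTGTNC for the glucocorticoid receptor, and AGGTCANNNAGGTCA for the vitamin D receptor. They were in 2, 20, 1, 137 and 2 of all windows (0.00570%, 0.0570%, 0.00285%, 0.390% and 0.00570%) and in none of the 31. The glucocorticoid forms overlap, since the looser one includes the stricter. The RARB window was the poorest in G and C, at 46% with 7 CpG dinucleotides, beside 63.6% and 15 in RARA and 69.6% and 10 in RARG.

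In this line 5 of the 9 genes were expressed above 1 TPM, 3 were low and 1 was silent. Silent here means a mean under 0.1 TPM in each group, and low a mean that reached 0.1 but not 1 TPM in any group. In control, NR3C1 was highest at 29.5 ± 2.6 TPM, followed by RARA at 28.1 ± 0.7, GATA3 at 9.45 ± 1.6, RARG at 7.94 ± 1.6 and VDR at 6.59 ± 0.84 (SD, n = 3). The library ranges of NR3C1 and RARA overlapped, as did those of GATA3 and RARG and of RARG and VDR, so these neighbours are not ordered beyond their spread. RARA and GATA3 were separated. Among all 58219 genes, 5104 had a control mean at or above that of NR3C1 and 10134 at or above that of VDR. In shAPT1, NR3C1 stood clear of RARA (34.7 ± 1.4 against 28.7 ± 0.7 TPM). In APT1wt the ranges of RARA (33.6 ± 2.7 TPM) and NR3C1 (33.0 ± 1.1 TPM) overlapped, and RARG followed at 10.9 ± 0.74 TPM, clear of VDR at 7.69 ± 0.48 TPM and of GATA3 at 7.32 ± 0.56 TPM.

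**Figure D1:**
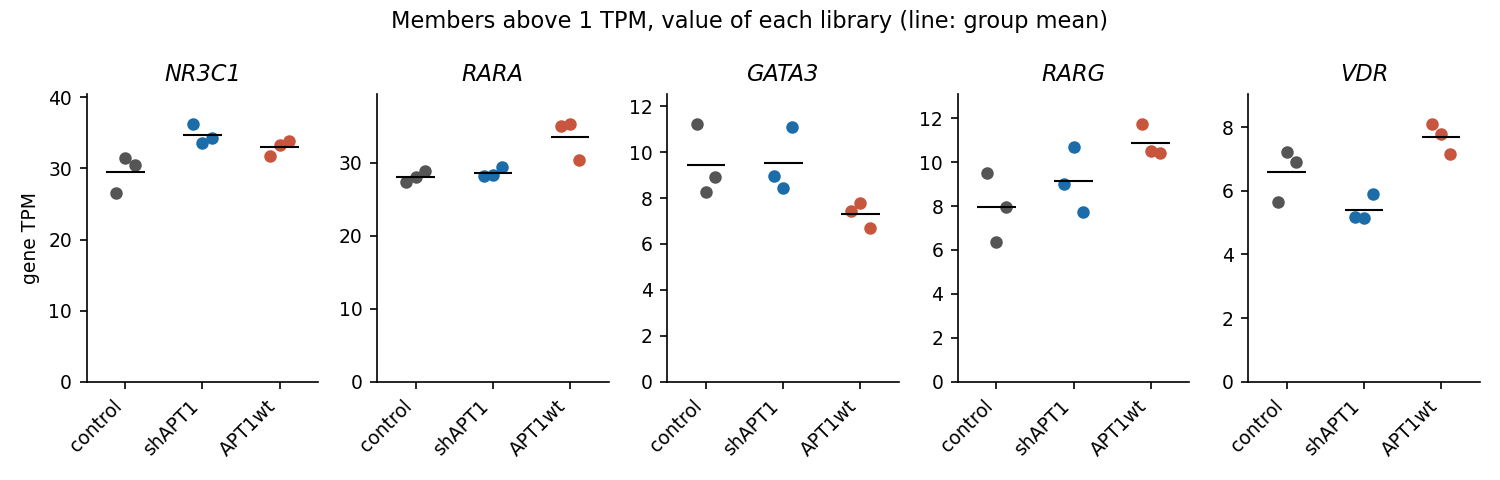
Gene TPM of the 5 expressed members in each library, on axes that start at 0, with 1 point per library and a line at the mean of the 3 libraries of a group. The shAPT1 points of NR3C1 lie above all control points, the APT1wt points of RARA and RARG lie above all control points, and the GATA3 points of APT1wt lie below all others.

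The sex steroid receptors were at the edge of detection. PGR (ENSG00000082175.14, chr11:101029624-101130524, minus strand, GRCh38), the progesterone receptor, had 0, 1 and 3 reads in the control libraries, 0, 0 and 1 in shAPT1 and 0, 0 and 0 in APT1wt. It was the 1 silent member. The 0 of 48657328 reads in APT1wt allows a level of up to 0.0617 CPM (read counts scaled to library size), counting error only.
ESR1 (ENSG00000091831.22, chr6:151656691-152129619, plus strand), the oestrogen receptor alpha, had 2, 1 and 1 reads in control, 0, 0 and 0 in shAPT1 and 5, 1 and 1 in APT1wt. Its mean was 0.0279 ± 0.0089 TPM in control and 0.146 ± 0.097 TPM in APT1wt. The APT1wt mean put it in the low class, and it rested in part on replicate 3, where 1 read on a transcript not annotated as protein-coding gave 0.219 TPM. Over protein-coding transcripts alone ESR1 was silent too, at 0.0729 TPM or less in each group.
FOXA1 (ENSG00000129514.5, chr14:37589984-37596059, minus strand), the pioneer factor that accompanies the oestrogen receptor, had 1, 2 and 2 reads in control, 4, 3 and 7 in shAPT1 and 1, 1 and 5 in APT1wt. Each shAPT1 library held more FOXA1 reads than any control library, and in scaled reads 37.9% of all tested genes were separate in this comparison. Scaled to depth the FOXA1 gap was slight, with 0.172 CPM in shAPT1 replicate 2 and 0.162 CPM in control replicate 2. The ratio of pooled CPM to control was 2.45 (exact 95% interval 0.834 to 8.69, counting error only), so no difference was detectable at this depth. ESR1, PGR and FOXA1 were the members with fewer than 10 reads in every library, and all 3 also stayed under a mean of 0.5 TPM in each group. None of these 3 passed the filter on low counts, which 6 of the 9 members passed.

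**Figure D2:**
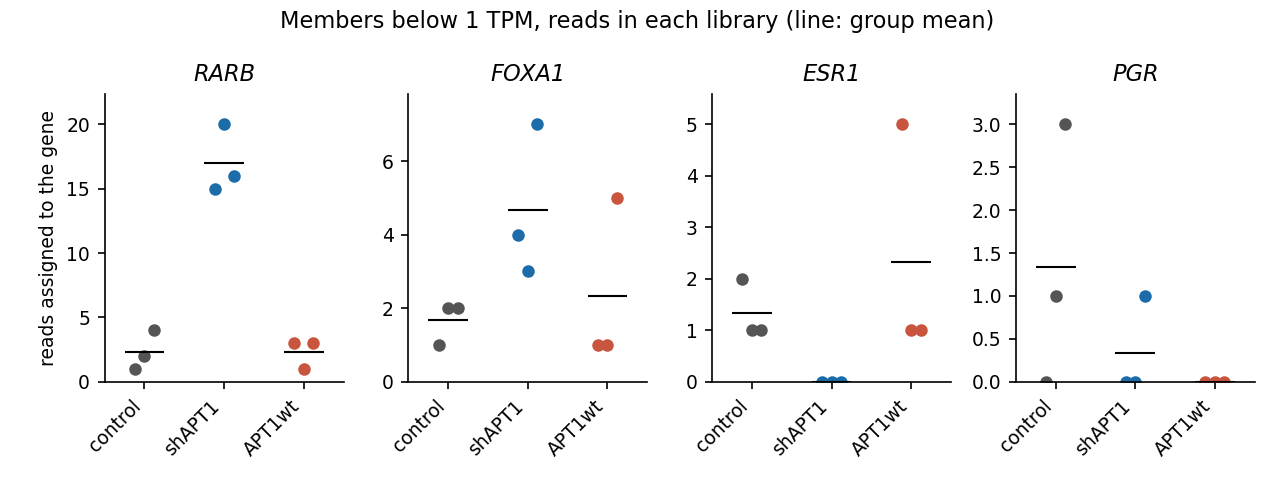
Reads assigned to RARB, FOXA1, ESR1 and PGR in each library, with 1 point per library, a line at the group mean and a separate axis for each gene. RARB had 15 to 20 reads in shAPT1 and 1 to 4 in the other groups, whereas FOXA1, ESR1 and PGR had at most 7, 5 and 3 reads in any library.

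Among the 6 members tested, RARB and NR3C1 rose in shAPT1 relative to control, and RARG and VDR rose in APT1wt relative to control. Between the engineered groups RARB was higher in shAPT1, and RARG, VDR and RARA were lower in shAPT1 than in APT1wt. Apart from RARB the called changes were below 2-fold. Each call is an adjusted p under 0.05 in edgeR's quasi-likelihood test over 15233 genes with Benjamini-Hochberg adjustment. In shAPT1 against control 24.4% of all tested genes passed (12.8% higher, 11.6% lower), beside 2 of 6 members. In APT1wt against control 23.4% passed (11.8% higher, 11.6% lower), beside 2 of 6. In shAPT1 against APT1wt 25.1% passed (12.7% higher, 12.4% lower), beside 4 of 6, of which 1 was higher and 3 were lower in shAPT1. Scaled by library totals alone, that comparison called 2628 genes higher and 1327 lower, beside 1941 and 1888. The 2 of 6 in each comparison with control lie near the background, and RARB entered the test through its shAPT1 libraries alone, so its call is not counted as support. Both comparisons with control share the same control libraries. In scaled reads the 2 groups did not overlap for 37.9%, 44.3% and 39.2% of all tested genes in the 3 comparisons. Of the 6 members 4, 3 and 5 did not overlap, RARB among them in both comparisons that involve shAPT1.

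**Figure D3:**
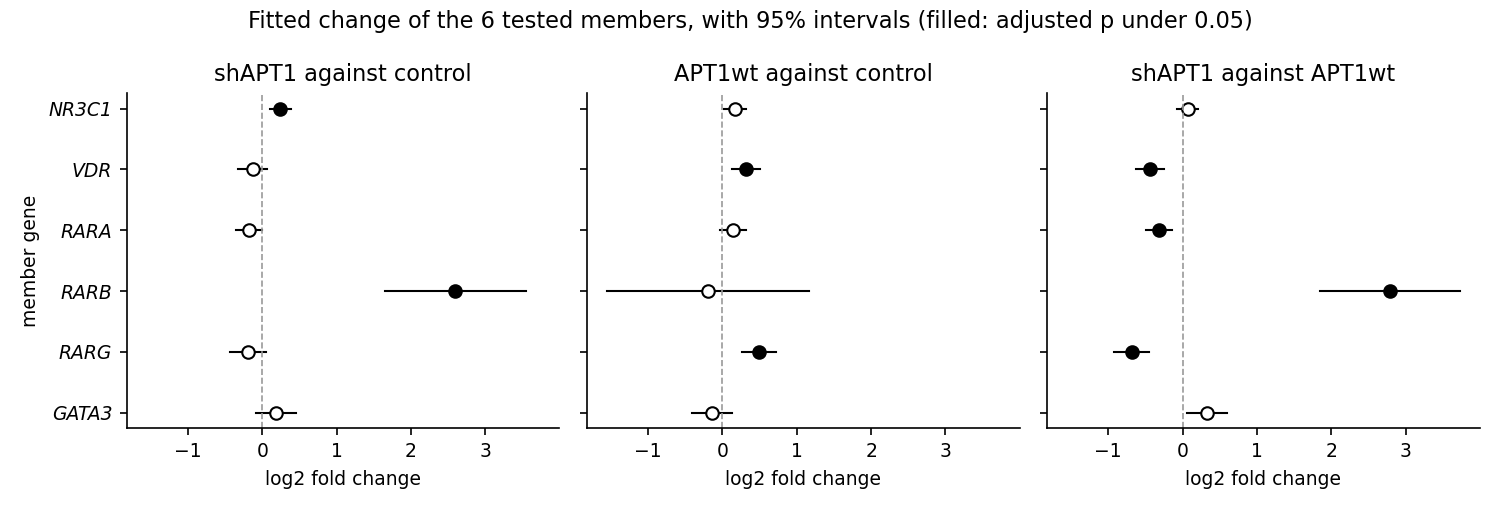
Fitted log2 fold changes of the 6 tested members in the 3 comparisons, as points with 95% intervals, filled where the adjusted p was under 0.05. RARB lies far to the right in both comparisons that involve shAPT1, with wide intervals, and the other members lie between -0.69 and 0.49.

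RARB (ENSG00000077092.18, chr3:25174332-25597932, plus strand), the retinoic acid receptor beta, was close to silent in control and APT1wt cells and measurable in shAPT1 cells. It had 1, 2 and 4 reads in the control libraries, 15, 20 and 16 in shAPT1 and 3, 1 and 3 in APT1wt. In TPM these were 0.0429, 0.0959 and 0.15 in control, 0.732, 0.605 and 0.646 in shAPT1 and 0.0837, 0.0480 and 0.0939 in APT1wt. Each shAPT1 library lay above all 6 others, and control and APT1wt overlapped. The log2 fold change was 2.60 ± 0.44 (SE) against control (edgeR adjusted p = 0.000719) and 2.79 ± 0.44 against APT1wt (edgeR adjusted p = 0.000396). From pooled reads the ratio to control was 6.37 (exact 95% interval 2.88 to 16.6) and to APT1wt 7.51 (3.39 to 19.6), counting error only. Since a gene with so few reads passes the filter only where 1 group is high, a difference was built into its being tested. APT1wt against control gave a log2 fold change of -0.19 ± 0.64 (edgeR adjusted p = 0.88), with a 95% interval of -1.56 to 1.17. The 50 tested genes on each side of RARB had a median log2 fold change of 0.08 in shAPT1 against control.
Reads of RARB in shAPT1 were assigned in part to RARB-001 and RARB-002 (ENST00000330688.8 and ENST00000437042.6), which start at the window shown above. These transcripts were chosen for that start, after their values had been seen. Together they received no read in any control library, 5.88, 11.7 and 13.4 reads in shAPT1 and 3, 0 and 0 in APT1wt. RARB-004 (ENST00000458646.1), which starts downstream, received 1, 2 and 4 reads in control, 7.94, 8.26 and 0.0199 in shAPT1 and 0, 1 and 3 in APT1wt. Salmon divides reads that several transcripts share by a model, so the split within a library of 15 to 20 reads is a description.

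**Figure D4:**
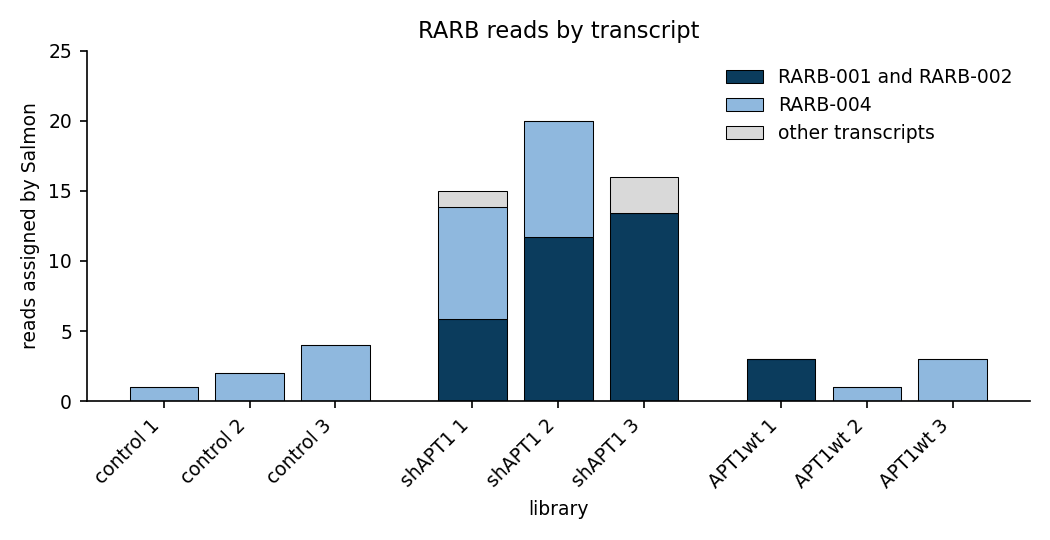
RARB reads in each library as stacked bars, divided by Salmon among RARB-001 and RARB-002 (dark), RARB-004 (light) and other transcripts (grey). The dark share is 5.88 to 13.4 reads in the shAPT1 libraries and is absent from the control libraries, whose 1 to 4 reads all went to RARB-004.

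The fibroblast marker list of 5 genes was higher in both engineered groups. The summed level of the list was 7.41 to 9.36 TPM in control, 10.9 to 17.3 in shAPT1 and 10.4 to 12.5 in APT1wt. All 3 of its tested genes rose in shAPT1, and 2 of 3 rose in APT1wt, where RARB had as many reads as in control. In shAPT1 and APT1wt the log2 fold changes were 1.39 ± 0.21 and 1.14 ± 0.21 for PDGFRB (edgeR adjusted p = 0.000271 and 0.00147). For COL1A1 they were 0.51 ± 0.13 and 0.54 ± 0.13 (edgeR adjusted p = 0.00938 and 0.00764). COL1A2, at only 0.368 TPM in control and 1.19 TPM in shAPT1, gave 1.69 ± 0.35 (edgeR adjusted p = 0.00263) and -0.59 ± 0.43 (edgeR adjusted p = 0.36). Among all tested genes 12.8% rose in shAPT1 and 11.8% in APT1wt. The defining fibroblast genes LUM and DCN stood at or below 0.424 and 0.27 TPM in every library. The part of this list in the RARB result was not tested.

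RARG (ENSG00000172819.16, chr12:53210567-53232980, minus strand), the gamma receptor, known mainly from skin and other epithelia, was higher in APT1wt. Its reads were 173, 129 and 183 in control, 131, 178 and 186 in shAPT1 and 295, 193 and 301 in APT1wt, which corresponds to 9.51, 6.35 and 7.97 TPM, 9.02, 10.7 and 7.73 TPM, and 11.7, 10.5 and 10.4 TPM. APT1wt lay above control in every library, and control and shAPT1 overlapped. On reads, the log2 fold change of APT1wt against control was 0.49 ± 0.11 (edgeR adjusted p = 0.00425) and that of shAPT1 against APT1wt -0.69 ± 0.11 (edgeR adjusted p = 0.000368). That of shAPT1 against control was -0.19 ± 0.11 (edgeR adjusted p = 0.24).
The split of RARG over transcripts is given without a test. Transcripts annotated with a retained intron summed to a mean of 0.973 TPM in control, to 2.76 TPM in shAPT1 and to 0.591 TPM in APT1wt. The 517-base transcript RARG-018 (ENST00000548317.1) stood at 1.33, 0 and 0 TPM in control, 2.43, 4.83 and 0.321 TPM in shAPT1 and 0.794, 0 and 0 TPM in APT1wt. The groups overlapped, and shAPT1 replicate 2 was the highest library. Over protein-coding transcripts control stood at 6.63 ± 0.82 TPM, shAPT1 at 5.87 ± 0.56 TPM and APT1wt at 9.81 ± 0.58 TPM (SD, n = 3). With an offset for the mean transcript length of each library, the log2 fold change was 0.47 in APT1wt against control (edgeR adjusted p = 0.107) and -0.33 in shAPT1 against APT1wt (edgeR adjusted p = 0.249), so both calls were lost. Under that offset shAPT1 against control turned to 0.13 (edgeR adjusted p = 0.69).
RARA (ENSG00000131759.17, chr17:40309192-40357643, plus strand), the most widely expressed of the retinoic acid receptors, stood at 27.4, 28.1 and 28.9 TPM in control, 28.2, 28.3 and 29.5 TPM in shAPT1 and 35.0, 35.3 and 30.4 TPM in APT1wt. In TPM all APT1wt libraries lay above the other 6. In scaled reads APT1wt and control overlapped, and shAPT1 lay below both. On reads, shAPT1 against APT1wt gave a log2 fold change of -0.32 ± 0.08 (edgeR adjusted p = 0.00977). Against control the values were -0.18 ± 0.08 in shAPT1 (edgeR adjusted p = 0.13) and 0.14 ± 0.08 in APT1wt (edgeR adjusted p = 0.23). The difference between shAPT1 and APT1wt passed in all 20 alternatives run, from -0.35 to -0.26.

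The partners of these receptors were not all steady. RXRA, the main retinoid X receptor outside muscle and brain, fell in shAPT1 from 28.2 ± 1.5 to 20.3 ± 3.4 TPM, with a log2 fold change of -0.51 ± 0.09 (edgeR adjusted p = 0.000683), and stood at 28.1 ± 1.7 TPM in APT1wt (0.06 ± 0.09, edgeR adjusted p = 0.64). The direct difference of shAPT1 from APT1wt was -0.58 ± 0.09 (edgeR adjusted p = 0.00026). RXRB averaged 27.1 ± 1.1, 28.5 ± 5.6 and 25.6 ± 2.1 TPM in control, shAPT1 and APT1wt and passed in no comparison. RXRG was listed at 0 in every library.
Of the 12 genes listed as retinoic acid receptor targets, 6 were tested. In shAPT1 1 rose and 1 fell, and in APT1wt 1 rose and 2 fell, beside 24.4% and 23.4% of all tested genes called. NRIP1, a corepressor induced by retinoic acid, rose in both, by 1.10 ± 0.16 in shAPT1 (edgeR adjusted p = 0.0002) and 0.99 ± 0.16 in APT1wt (edgeR adjusted p = 0.0005). TGM2, a transglutaminase, fell by 0.37 ± 0.11 in shAPT1 (edgeR adjusted p = 0.0217). CYP26B1, which degrades retinoic acid, and CRABP2, its carrier to the nucleus, fell in APT1wt by 0.48 ± 0.14 and 0.80 ± 0.27 (edgeR adjusted p = 0.0218 and 0.0449). The CRABP2 libraries of APT1wt and control overlapped. The median log2 fold change of the tested targets was 0.21 in shAPT1 and -0.27 in APT1wt, beside -0.0039 and -0.0040 over all tested genes. CYP26A1, the classical inducible target, stayed at or below 0.154 TPM in every library. The count fell from 2 to 1 in shAPT1 without control replicate 1, and from 3 to 1 in APT1wt without control replicate 1, control replicate 2 or APT1wt replicate 1.
Of 16 genes of retinoid transport and metabolism 6 were tested, and 2 of them rose in shAPT1 and 2 in APT1wt, where 2 fell, with medians of 0.25 and 0.16. Among all tested genes 24.4% were called in shAPT1 and 23.4% in APT1wt. ALDH1A3, which makes retinoic acid from retinal, rose from 7.72 ± 0.94 TPM in control to 10.6 ± 2.5 in shAPT1 (log2 fold change 0.60 ± 0.16, edgeR adjusted p = 0.0116) and 10.4 ± 0.25 in APT1wt (0.62 ± 0.16, edgeR adjusted p = 0.0104). RDH11, a retinal reductase, rose by 0.36 ± 0.06 in shAPT1 (edgeR adjusted p = 0.000642) and FABP5, a fatty acid and retinoid carrier, by 0.35 ± 0.07 in APT1wt (edgeR adjusted p = 0.00316). The 2 that fell in APT1wt were CYP26B1 and CRABP2, which the list shares with the targets. The count in shAPT1 was 1 without control replicate 1 and 4 without shAPT1 replicate 3, and that in APT1wt was 1 without control replicate 1 and 2 without control replicate 2 or APT1wt replicate 1.

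NR3C1 (ENSG00000113580.14, chr5:143277931-143435512, minus strand), the glucocorticoid receptor, was the best measured member, with 1407 to 2343 reads per library. It stood at 26.5, 31.5 and 30.4 TPM in control, 36.2, 33.6 and 34.2 TPM in shAPT1 and 31.8, 33.4 and 33.9 TPM in APT1wt. Every library of both engineered groups lay above every control library, while shAPT1 and APT1wt overlapped. In scaled reads 37.9% of all tested genes were separate from control in shAPT1 and 44.3% in APT1wt, in either direction. The log2 fold change was 0.24 ± 0.07 in shAPT1 (edgeR adjusted p = 0.0164) and 0.17 ± 0.07 in APT1wt (edgeR adjusted p = 0.08). Their direct difference was 0.07 ± 0.07 (edgeR adjusted p = 0.47; 95% interval -0.07 to 0.21). The shAPT1 call was lost with the length offset (0.17, edgeR adjusted p = 0.122) and without control replicate 1, the lowest library (0.20, edgeR adjusted p = 0.0723). It was also lost with the authors' deposited gene table, described below. The APT1wt value passed without shAPT1 replicate 1 (0.17, edgeR adjusted p = 0.0212) and in a fit of the APT1wt and control libraries alone (0.17, edgeR adjusted p = 0.0243).
Genes listed as glucocorticoid receptor targets moved in both directions in shAPT1: of 14 tested, 5 rose and 6 fell, beside 12.8% and 11.6% of all tested genes, with a median log2 fold change of -0.09. SGK1, a serum- and glucocorticoid-induced kinase, rose from 14.8 ± 0.84 to 28.0 ± 1.1 TPM (log2 fold change 0.91 ± 0.09, edgeR adjusted p = 4.3e-06). DUSP1, a phosphatase that dampens MAP kinases, rose from 13.2 ± 0.65 to 27.1 ± 3.6 TPM (0.96 ± 0.10, edgeR adjusted p = 7.1e-06). ANGPTL4, an inhibitor of lipoprotein lipase, fell from 5.59 ± 0.71 to 2.09 ± 0.78 TPM (-1.81 ± 0.32, edgeR adjusted p = 0.00101), and CEBPD fell by 0.91 ± 0.22 on the log2 scale (edgeR adjusted p = 0.00797). FKBP5 and TSC22D3, which are induced by glucocorticoids in many cells, gave 0.04 ± 0.07 and 0.35 ± 0.17 (edgeR adjusted p = 0.76 and 0.16).
In APT1wt 3 of the 14 rose, beside 11.8% of all tested genes, and the other 11 did not pass, with a median of 0.13. The 3 that rose were MT2A, a metallothionein (0.46 ± 0.09, edgeR adjusted p = 0.00128), PER1, a clock repressor (0.46 ± 0.14, edgeR adjusted p = 0.029), and ERRFI1, a feedback inhibitor of EGFR (0.36 ± 0.07, edgeR adjusted p = 0.00215). PER1 and ERRFI1 also rose in shAPT1 against control, by 0.41 ± 0.14 and 0.48 ± 0.07 (edgeR adjusted p = 0.046 and 0.000219). MT2A was 1457 ± 105 TPM in shAPT1, 2206 ± 163 in control and 3132 ± 339 in APT1wt, and its direct difference was -1.21 ± 0.09 (edgeR adjusted p = 3.4e-07). The list's count fell from 11 to 7 in shAPT1 without control replicate 1, and rose from 3 to 5 in APT1wt without shAPT1 replicate 1 or APT1wt replicate 1.

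VDR (ENSG00000111424.10, chr12:47841537-47943048, minus strand), the vitamin D receptor, stood at 5.64, 7.22 and 6.91 TPM in control, 5.19, 5.14 and 5.90 TPM in shAPT1 and 8.09, 7.80 and 7.16 TPM in APT1wt. In TPM the APT1wt and control libraries overlapped and every APT1wt library lay above every shAPT1 library, and in scaled reads APT1wt lay above both other groups. The log2 fold change was 0.31 ± 0.09 in APT1wt (edgeR adjusted p = 0.0185) and -0.13 ± 0.09 in shAPT1 (edgeR adjusted p = 0.33), and the direct difference of shAPT1 from APT1wt was -0.44 ± 0.09 (edgeR adjusted p = 0.00211). The direct difference passed in all 20 alternatives, from -0.59 to -0.38. The call in APT1wt against control was lost with the length offset (0.24, edgeR adjusted p = 0.205) and without APT1wt replicate 1, control replicate 2 or control replicate 3 (0.27, 0.29 and 0.31, with edgeR adjusted p = 0.0687, 0.0773 and 0.0674). The deposited gene table lost this call too.
Of 10 genes listed as vitamin D receptor targets 5 were tested, with medians of 0.58 in shAPT1 and -0.03 in APT1wt. Of these 5, 2 rose and 1 fell in shAPT1 and 1 rose and 2 fell in APT1wt. Among all tested genes 24.4% and 23.4% were called. CYP24A1, the hydroxylase that inactivates vitamin D and the textbook target of its receptor, rose in both groups: from 5.39 ± 0.99 TPM in control to 10.3 ± 1.2 in shAPT1 (log2 fold change 1.21 ± 0.15, edgeR adjusted p = 4.5e-05) and 6.95 ± 1.3 in APT1wt (0.50 ± 0.16, edgeR adjusted p = 0.0313). It was higher in shAPT1 than in APT1wt by 0.71 ± 0.14 (edgeR adjusted p = 0.00191), where VDR itself was lower. IGFBP3, a binding protein of insulin-like growth factors, averaged 35.2 ± 5.3, 55.5 ± 4.0 and 22.7 ± 2.1 TPM in control, shAPT1 and APT1wt, a rise of 0.58 ± 0.09 and a fall of 0.63 ± 0.10 on the log2 scale (edgeR adjusted p = 0.000481 and 0.000327). THBD, thrombomodulin, fell in both, by 0.42 ± 0.08 and 0.87 ± 0.08 (edgeR adjusted p = 0.00183 and 4.7e-06).

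GATA3 (ENSG00000107485.15, chr10:8045378-8075203, plus strand) was expressed in this line despite the near absence of ESR1, PGR and FOXA1. It stood at 11.2, 8.25 and 8.90 TPM in control, 8.98, 8.44 and 11.1 TPM in shAPT1 and 7.45, 7.80 and 6.71 TPM in APT1wt. APT1wt lay below the other 6 libraries in TPM, and control and shAPT1 overlapped. It passed in no comparison: on reads the log2 fold change was 0.19 ± 0.12 in shAPT1 (edgeR adjusted p = 0.31; 95% interval -0.08 to 0.45), -0.14 ± 0.13 in APT1wt (edgeR adjusted p = 0.47; -0.41 to 0.13) and 0.33 ± 0.12 between shAPT1 and APT1wt (edgeR adjusted p = 0.0692). The difference between shAPT1 and APT1wt passed without control replicate 1, with library totals alone and in a fit of those 2 groups (0.33, 0.39 and 0.33, with edgeR adjusted p = 0.033, 0.0333 and 0.0479). Neither direction against control held in every alternative. Protein-coding transcripts held 68.4% to 69.8% of GATA3 TPM in control, 81.3% to 94.0% in shAPT1 and 76.9% to 100% in APT1wt.
Of 7 other GATA and FOXA genes 4 were tested, of which 2 rose in shAPT1 and 3 in APT1wt, beside 12.8% and 11.8% of all tested genes. Their median log2 fold changes were 0.86 and 0.60, and 3 of the 7 were silent. GATA6, an endoderm and mesoderm factor, went from 7.98 ± 0.58 TPM in control to 14.8 ± 1.7 TPM in shAPT1 and 12.4 ± 0.10 TPM in APT1wt, with log2 fold changes of 0.86 ± 0.09 and 0.66 ± 0.09 (edgeR adjusted p = 1.2e-05 and 0.000132). FOXA2 averaged 3.95 ± 0.44, 7.71 ± 0.93 and 7.06 ± 1.3 TPM, with 0.90 ± 0.17 and 0.84 ± 0.17 (edgeR adjusted p = 0.00127 and 0.00226). FOXA3 passed in neither comparison, with 0.86 ± 0.36 and -0.54 ± 0.42 (edgeR adjusted p = 0.095 and 0.39). GATA2, known from blood progenitors, rose in APT1wt by 0.55 ± 0.10 (edgeR adjusted p = 0.00156), gave 0.10 ± 0.11 in shAPT1 (edgeR adjusted p = 0.54) and was lower in shAPT1 than in APT1wt (log2 difference -0.45 ± 0.10, edgeR adjusted p = 0.00512).
Of 20 luminal markers 14 were tested, of which 4 rose and 2 fell in shAPT1 and 4 rose and 1 fell in APT1wt, beside 24.4% and 23.4% of all tested genes, with medians of 0.20 and 0.13. KRT18, a simple-epithelial keratin, rose from 229 ± 6 TPM to 351 ± 54 in shAPT1 and 336 ± 12 in APT1wt (log2 fold changes 0.54 ± 0.09 and 0.56 ± 0.09, edgeR adjusted p = 0.000442 and 0.000357). KRT8, its partner, rose by 0.64 ± 0.10 in shAPT1 and 0.43 ± 0.10 in APT1wt (edgeR adjusted p = 0.000503 and 0.00832). EHF, an epithelial ETS factor, fell by 0.76 ± 0.13 and 1.04 ± 0.13 (edgeR adjusted p = 0.00054 and 4.1e-05), and CLDN4, a tight junction protein, fell by 0.84 ± 0.11 in shAPT1 (edgeR adjusted p = 6.7e-05). The count in APT1wt was 8 without shAPT1 replicate 1.
Genes listed as oestrogen receptor targets were mostly expressed although ESR1 had at most 5 reads in a library: 12 of 14 exceeded 1 TPM in at least 1 group. Of 13 tested, 3 rose and 2 fell in shAPT1, and 3 rose and 2 fell in APT1wt, beside 24.4% and 23.4% of all tested genes, with medians of 0.09 and -0.03. SLC39A6 and CTSD were called in shAPT1, IRS1 and CCND1 in APT1wt, and XBP1, PRLR and AREG in both. AREG, a ligand of EGFR, stood at 17.0 ± 1.5 TPM in control, 39.1 ± 2.8 TPM in shAPT1 and 10.0 ± 0.56 TPM in APT1wt, and its log2 fold changes were 1.13 ± 0.11 and -0.76 ± 0.12 (edgeR adjusted p = 4.9e-06 and 0.000464). PRLR, the prolactin receptor, fell in both, by 1.18 ± 0.18 and 0.93 ± 0.17 (edgeR adjusted p = 0.000261 and 0.00139). IRS1, an adaptor of insulin signalling, rose in APT1wt by 0.44 ± 0.06 (edgeR adjusted p = 0.000112).

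Of 41 other nuclear receptor genes 26 were tested, of which 5 rose and 2 fell in shAPT1 and 4 rose and 1 fell in APT1wt. These shares too lie near the background of 24.4% and 23.4%, and the medians were 0.12 and 0.04. NR2F1, an orphan receptor known from neural development, rose from 1.30 ± 0.56 TPM in control to 5.39 ± 0.91 in shAPT1 (log2 fold change 2.34 ± 0.17, edgeR adjusted p = 4.1e-07) and 2.60 ± 0.23 in APT1wt (0.99 ± 0.19, edgeR adjusted p = 0.00195), and was higher in shAPT1 than in APT1wt by 1.35 ± 0.15 (edgeR adjusted p = 2.5e-05). THRB, a thyroid hormone receptor on the same chromosome as RARB, rose by 1.28 ± 0.20 and 1.09 ± 0.21 (edgeR adjusted p = 0.000396 and 0.00158). PPARG, the receptor best known from fat cells, rose by 0.61 ± 0.09 and 0.69 ± 0.09 (edgeR adjusted p = 0.000146 and 4.4e-05). The mineralocorticoid receptor NR3C2 fell in APT1wt from 2.55 ± 0.53 to 1.40 ± 0.29 TPM (-0.80 ± 0.18, edgeR adjusted p = 0.0053). The count in shAPT1 was 4 without control replicate 3 or shAPT1 replicate 2.
Of 12 coregulators, all tested, 2 rose and 1 fell in each comparison with control, a share near the 24.4% and 23.4% of all tested genes, with medians of 0.00 and 0.08. Beside NRIP1, which also stands among the retinoic acid targets, NCOA3, a coactivator amplified in some breast tumours, rose in shAPT1 by 0.35 ± 0.08 (edgeR adjusted p = 0.00422). PPARGC1B, a coactivator of energy metabolism, fell in shAPT1 by 0.50 ± 0.10 (edgeR adjusted p = 0.00196) and rose in APT1wt by 0.34 ± 0.09 (edgeR adjusted p = 0.0164). The count in APT1wt was 5 without shAPT1 replicate 1.

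Gene reads and TPM differed for several members, whose reads Salmon assigned to transcripts of different mean length in the 3 groups. The mean effective transcript length of RARG was 2099 bases in control, 1691 in shAPT1 and 2113 in APT1wt, that of GATA3 2006, 2392 and 2339, and that of VDR 3451, 3999 and 3599. For RARA it was 1753, 1592 and 1607 bases. With an offset for this length RARB was the 1 member still called in shAPT1 against control, and RARB, VDR and RARA were called in shAPT1 against APT1wt.

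**Figure D5:**
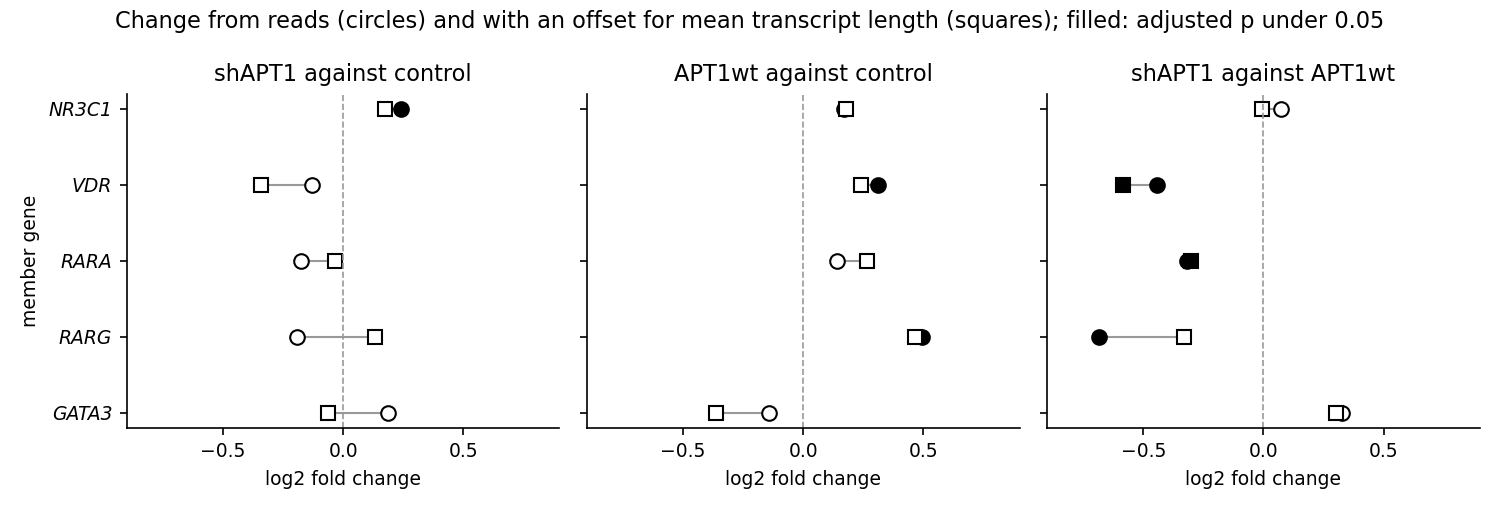
Log2 fold changes of the 5 expressed members from reads (circles) and with an offset for the mean transcript length of each library (squares), filled where the adjusted p was under 0.05. RARG moves from -0.69 to -0.33 between shAPT1 and APT1wt, its value in shAPT1 against control changes sign, and VDR and RARA stay called between shAPT1 and APT1wt.

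For each member called in a comparison with control, the protein-coding genes with the most similar profile over the 9 libraries were sought among 11811 genes, by the root mean square distance of log2 CPM centred on their mean. NAA35 was among the 2 nearest to NR3C1, at a distance of 0.028, and SUMO3 among the 2 nearest to VDR (0.047). LAMP1 and OSBPL7 lay nearest to RARG (0.089 and 0.094). For RARB the nearest were B3GNT7 and SDPR, at the wider distances of 0.35 and 0.35. SDPR averaged 10.1, 35.3 and 10.7 TPM in control, shAPT1 and APT1wt. The 9 libraries share their 3 groups, so such distances describe these libraries only.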

How the data were processed

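RNA-seq of 9 MDA-MB-231 libraries in 3 groups of 3 was used. Per the submitters' processing notes, the authors checked reads with FastQC, quantified them with Salmon on GRCh38.p10 and used DESeq2, with no versions given. Their deposited Salmon files give TPM and estimated counts (Salmon's expected counts) of 199324 transcripts, which belong to 58219 genes. A deposited table of genes gives a signal that the authors scaled, in a way not given in the sources used here, with column sums of 14557704 to 15505929; it served as an alternative. Its test used limma on log2 of the value plus 1.

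Estimated counts were summed per gene and rounded, and TPM was summed per gene. Genes were kept by edgeR's filterByExpr (15233 genes) and scaled by TMM. All 9 libraries entered edgeR's quasi-likelihood fit (edgeR 4.0.16, limma 3.58.1, R 4.3.3) with 3 contrasts, adjusted by Benjamini-Hochberg at 0.05 over all tested genes. An SE is the log2 fold change divided by the square root of the F statistic. The fit was tested on simulated data. Silence was judged by mean TPM; the floor for a count of 0 is 3 reads of the group's total, and intervals of low counts are exact at 95%. Positions came from GENCODE 29 on GRCh38, promoters from RefSeq. Python 3.11.15, pandas 2.3.3 and matplotlib 3.10.9 were used for tables and figures.

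The members and the 15 gene lists were chosen with earlier results of these data known. From each list, up to 4 called genes with the largest change and a mean of at least 1 TPM were eligible to be named, and RXRA, RXRB and RXRG in any case; the 2 nearest profiles were eligible for each member called against control. Some genes that this rule admits are not reported here. VIM, KRT8 and the other luminal genes in the opening, PTPRC, LUM, DCN, CYP26A1, CCND1, FOXA3, FKBP5, TSC22D3 and the RARB transcripts were named outside this rule, with their values known. The alternatives tried were scaling by RLE or by library totals, no filter, a minimum of 20 reads in 3 libraries, an offset for transcript length, protein-coding transcripts alone, a replicate block, removal of the median deviation of 50 neighbouring tested genes on each side, only the groups compared, the deposited table, DESeq2 1.42.0 and leaving out each library.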

Additional observations from a re-analysis of the deposited data

How the results depend on the processing

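RARB in shAPT1 against control ranged from 2.28 to 3.10 in the 19 alternatives that tested it, which is no sign of stability. Apart from DESeq2 and the setting without a filter, it was tested only through its high shAPT1 libraries. All of these alternatives drew on the same few reads. The filter of at least 20 reads left it out. With that filter, with the length offset and with the deposited table, 1 member was called in shAPT1 against control in place of 2. With the length offset (edgeR) and with the deposited table (limma), 0 were called in APT1wt against control in place of 2, though 4 had an unadjusted p under 0.05 in each, and DESeq2 called 2. Leaving out 1 library gave 1 to 2 calls in shAPT1 against control and 1 to 3 in APT1wt against control, with 3 without shAPT1 replicate 1, where NR3C1 joined RARG and VDR. Between shAPT1 and APT1wt the count was 3 with these 3 settings, beside 4.

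Values that changed sign were GATA3 in shAPT1 against control (-0.062 with the length offset, -0.053 in the deposited table), GATA3 in APT1wt against control (0.084 with neighbouring genes removed, and -0.24 to 0.014 on leaving out 1 library), RARG in shAPT1 against control (0.13 and 0.14), NR3C1 between shAPT1 and APT1wt (-0.0065 and -0.0091) and RARB in APT1wt against control (-0.51 to 0.30 on leaving out 1 library). None of these was called, and the cause was not tested. The silent members numbered 3 at a mean under 0.5 TPM or at fewer than 10 reads per library, and 2 over protein-coding transcripts, beside 1.

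The replicate numbers did not pair the libraries (correlations of same-numbered libraries -0.05 to 0.10, 1 of 9 over 0.1). A replicate block called 2, 2 and 4 members in the 3 comparisons, as without it. Without APT1wt replicate 3, 2298 genes were called in APT1wt against control in place of 3568. Over all genes the length offset called 2307, 2230 and 2373 genes beside 3719, 3568 and 3829. Of the recomputed list counts, 108 moved by over 1.5 times and 732 did not, and of the values of named list genes 165 lost their call and 1911 kept it. Depth limits ESR1, PGR, FOXA1 and RARB, where 1 read is worth 0.0536 to 0.0808 CPM.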
